A study of Mus musculus with 12 samples.

Results

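Bone morphogenetic proteins (BMPs), their receptor, 2 of their extracellular modulators and 2 of their target genes were followed in brown adipocytes that carried a soluble form of Semaphorin 4B. The 10 genes were taken by symbol from the 48321 genes listed in the count matrix: the ligands Bmp2, Bmp3, Bmp4, Bmp6 and Bmp7, the receptor Bmpr1a, the modulators Grem1 and Bmper, and the targets Id1 and Id3. All 10 were listed, 8 had at least 1 read, and 5 (Bmpr1a, Grem1, Bmper, Id1 and Id3) passed the filter on low values and were tested. The cells were SV40-immortalised preadipocytes from the interscapular brown fat of wild-type C57BL/6J mice, from 1 newborn according to the methods of the study, stably transduced with lentivirus and selected with puromycin. The control line (vector) carried the empty pLEX vector and the other line (tSema4B) carried pLEX with truncated, Flag-tagged mouse Semaphorin 4B. After 8 days of adipogenic differentiation both lines were held in serum-free medium for 6 h, either unstimulated or with 2 µM norepinephrine (NE), the adrenergic agonist that activates brown fat. This gave 4 groups of 3 libraries. Each construct stands for a single selected line, and the submitters describe the 3 libraries of a group as technical replicates, so the p-values measure only the spread between these libraries.

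BMPs are secreted ligands that bind pairs of type I and type II receptors, which phosphorylate Smad proteins, and these enter the nucleus and switch on target genes, the Id genes among the best known. Extracellular proteins such as Gremlin hold the ligands away from the receptors, and Bmper (BMP-binding endothelial regulator, the homologue of fly crossveinless-2) can act either for or against BMP signalling. Bmp7 is known for driving commitment to the brown fat lineage, and Bmp4 for driving commitment of mesenchymal precursors to adipocytes. Id proteins bind basic helix-loop-helix transcription factors and keep them from DNA.

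Values are read counts per gene divided by the DESeq2 size factor of the library, called normalised read counts below. The libraries held between 2000780 and 5409583 reads on genes. Depth differed between the lines. Vector libraries held more reads than tSema4B libraries in both conditions, at 2841941 to 3682634 against 2000780 to 2541747 reads unstimulated and at 4739777 to 5409583 against 2307190 to 3144946 reads with NE. Sema4b was higher in the line labelled tSema4B but also abundant in the line labelled empty vector. Its mean was 116797 ± 6692 normalised read counts (SD, n = 3) in vector and 281514 ± 31108 in tSema4B cells when unstimulated, and 74266 ± 8219 and 234276 ± 32374 with NE. Its reads made up 2.04 to 4.02% of the reads of the vector libraries and 7.01 to 10.2% of those of the tSema4B libraries. Adipocyte markers checked the cell type. The summed level of 15 such genes was 33599 to 37398 normalised read counts in unstimulated vector libraries and 5507 to 8082 in unstimulated tSema4B libraries, and 47177 to 59780 and 9673 to 11067 with NE. Of the 14 that were tested, 12 were called lower in tSema4B cells in each condition, Dio2 had no read in any group and Ucp1 none in unstimulated tSema4B cells. With NE against without, 1 of the 14 was called higher in vector and 3 in tSema4B cells, and 0 were called lower. The median log2 fold change of the 14 with NE was -0.019 in vector and 0.33 in tSema4B cells. The summed level of 12 preadipocyte and fibroblast genes ran the other way, at 11122 to 11702 and 20340 to 23231 unstimulated and at 9633 to 10913 and 20308 to 21658 with NE, and 3 of the 11 tested were called higher in tSema4B cells in each condition while the other 8 were not called. Endothelial genes summed to 13.1 to 21.9 in unstimulated tSema4B and 4.34 to 10.9 in unstimulated vector libraries without overlap, to at most 17.2 with NE, and macrophage genes to at most 24.6 in any library, with no read of Adgre1 or Ptprc, and smooth muscle genes summed to 769 to 1166 unstimulated and 593 to 794 with NE in vector, and to 1091 to 1193 and 498 to 819 in tSema4B cells. The macrophage sum was higher with NE without overlap, at 13.4 to 23.6 against 3.36 to 7.60 in vector and at 9.65 to 24.6 against 0 to 5.48 in tSema4B cells, and the 1 gene of that list that was tested was called higher with NE in both lines. The adipocyte and preadipocyte levels thus move with the tSema4B line beside every result on that line below, as does the endothelial sum beside the unstimulated ones, and the adipocyte and macrophage sums move with NE in both lines beside every result on NE. The preadipocyte sum in vector cells and the smooth muscle sum in tSema4B cells were also lower with NE without overlap. Their part in those results was not tested. In bulk RNA, fewer cells of a type and less RNA per cell cannot be told apart.

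The members lie on 6 chromosomes (GRCm38). Bmper spans chr9:23223076-23485200 on the plus strand with 16 exon blocks, and Grem1 spans chr2:113746164-113758646 on the minus strand with 2. Id1 is a compact gene of 1160 exonic bases at chr2:152736251-152737410 on the plus strand, and Id3 lies at chr4:136143497-136145755 on the plus strand. Bmpr1a lies at chr14:34410734-34503341 and Bmp4 at chr14:46383520-46390669, both on the minus strand. Bmp6 lies at chr13:38345107-38500302 and Bmp3 at chr5:98854415-98884396 on the plus strand, and chromosome 2 also holds Bmp2 (chr2:133552159-133562885, plus) and Bmp7 (chr2:172868012-172940321, minus). Exons of 3 members overlap those of a gene on the opposite strand, over 290 bases for Bmpr1a (the antisense gene Gm17110), 89 for Bmp4 (Gm15217) and 224 for Bmp6 (Txndc5). Whether the counting used the strand is not stated, so reads in these stretches cannot be assigned with certainty.

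Promoters of 3 members are shown. Bmper was higher in every comparison, and Id3 and Grem1 were not called in any, though Grem1 had lower libraries after NE. No window was found for Id1, which was called lower in tSema4B cells with NE, so its pattern is not shown. The promoters are RefSeq windows (GRCm38.p6) from 250 bases before to 50 bases after the start site. They are read 5′ to 3′ along the gene, and capitals mark motif letters found by search.
Bmper, chr9:23222826-23223125, plus strand: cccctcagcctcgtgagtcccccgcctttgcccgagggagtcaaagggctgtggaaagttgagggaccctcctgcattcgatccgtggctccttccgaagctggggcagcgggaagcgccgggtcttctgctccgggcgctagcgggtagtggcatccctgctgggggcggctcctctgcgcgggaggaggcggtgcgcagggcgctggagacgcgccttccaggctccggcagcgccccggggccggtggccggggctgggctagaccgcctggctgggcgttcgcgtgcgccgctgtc
Id3, chr4:136143572-136143871, plus strand: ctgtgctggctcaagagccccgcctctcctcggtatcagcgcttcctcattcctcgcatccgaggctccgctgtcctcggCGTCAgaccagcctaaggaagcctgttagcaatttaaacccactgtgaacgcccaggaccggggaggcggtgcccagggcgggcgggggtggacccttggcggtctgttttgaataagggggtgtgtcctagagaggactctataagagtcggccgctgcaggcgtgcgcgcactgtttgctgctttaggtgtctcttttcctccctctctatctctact
Grem1, chr2:113758599-113758898, minus strand: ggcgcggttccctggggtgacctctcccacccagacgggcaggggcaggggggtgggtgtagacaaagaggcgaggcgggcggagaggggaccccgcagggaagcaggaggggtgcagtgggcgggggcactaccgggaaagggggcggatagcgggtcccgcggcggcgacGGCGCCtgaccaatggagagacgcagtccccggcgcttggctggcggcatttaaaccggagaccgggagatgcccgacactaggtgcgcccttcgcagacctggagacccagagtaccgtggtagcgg

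Such windows were found for 6 of the 10 members (Bmp4, Bmp6, Bmper, Bmpr1a, Grem1 and Id3). Both strands were searched for 5 sets of letters, namely the GC-rich Smad letters GGCGCC, the Smad palindrome GTCTAGAC, the cAMP response element TGACGTCA, its shorter core TGACG, which lies within it, and the E box CACGTG. The Bmper window is 72.7% G and C and held no match. The Id3 window (60% G and C) held TGACG on the opposite strand, 170 bases before the start site, a match that 20.8% of all 32851 windows hold. The Grem1 window (70.7%) held GGCGCC 78 bases before the start site, as did that of Bmpr1a 198 bases before it, against 11.9% of all windows. CACGTG was in the windows of Bmp4 and Bmp6 (7.15% of all windows), and neither GTCTAGAC (0.213%) nor TGACGTCA (1.79%) was in any of the 6. A match describes letters only and is not a binding site.

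The ligands were at or near the limit of detection. Bmp2 and Bmp7 had 0 reads in every one of the 12 libraries, 39473125 reads in all. Over all libraries together this allows a level of up to 0.0760 reads per 1000000 (RPM; 3 reads of the total, counting error only). Within a single group the limit was higher, from 0.199 RPM in vector with NE to 0.444 RPM in unstimulated tSema4B cells. Bmp3, an atypical BMP that opposes the others, had 0, 3 and 1 reads in the unstimulated vector libraries and 1, 3 and 0 in the vector libraries with NE. All 6 tSema4B libraries had 0 reads of Bmp3, and a count of 0 allows up to 0.444 RPM unstimulated and 0.365 with NE. The vector libraries held only 4 reads of it in each condition, so a difference between the lines was not detectable at this depth.

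Bmp4 and Bmp6 were detected mainly without NE. Bmp4 had 9, 10 and 4 reads in the unstimulated vector libraries, 4, 1 and 10 in unstimulated tSema4B, 0, 0 and 1 in vector with NE, and 0, 3 and 1 in tSema4B with NE. In vector cells every NE library lay below every unstimulated library, whereas in tSema4B cells the ranges overlapped. Relative to depth, Bmp4 was 35.7-fold lower with NE in vector cells (1 read against 23; exact binomial 95% interval 5.80 to 1471, counting error only) and 4.65-fold lower in tSema4B cells (4 against 15; 1.48 to 19.2). Bmp4 did not pass the filter on low values. Without that filter the limma log2 fold change with NE was -2.79 in vector cells (adjusted p = 0.0411 over 22569 genes), where 1.2% of the genes tested met both thresholds, and -1.53 in tSema4B cells (adjusted p = 0.403). The difference between these 2 responses of Bmp4 was 1.25 and was not called (limma interaction, adjusted p = 0.824). Bmp6 had 3, 2 and 5 reads in unstimulated vector libraries, 1, 3 and 2 in unstimulated tSema4B, 1, 0 and 1 in vector with NE and 3, 0 and 0 in tSema4B with NE. Its ratio was 7.76-fold lower with NE in vector cells (2 reads against 10; 1.65 to 72.9) and 2.48-fold lower in tSema4B cells (3 against 6; 0.529 to 15.3), and the unfiltered limma test gave an adjusted p of 0.252 and 0.529. Between the lines without NE, the ratio of tSema4B to vector was 0.891 for Bmp4 (0.432 to 1.78) and 0.820 for Bmp6 (0.245 to 2.49). With NE it was 6.85 for Bmp4 (4 reads against 1; 0.678 to 337) and 2.57 for Bmp6 (3 against 2; 0.294 to 30.8). All 4 intervals include 1, so a difference between the lines was not detectable at this depth.

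**Figure D1:**
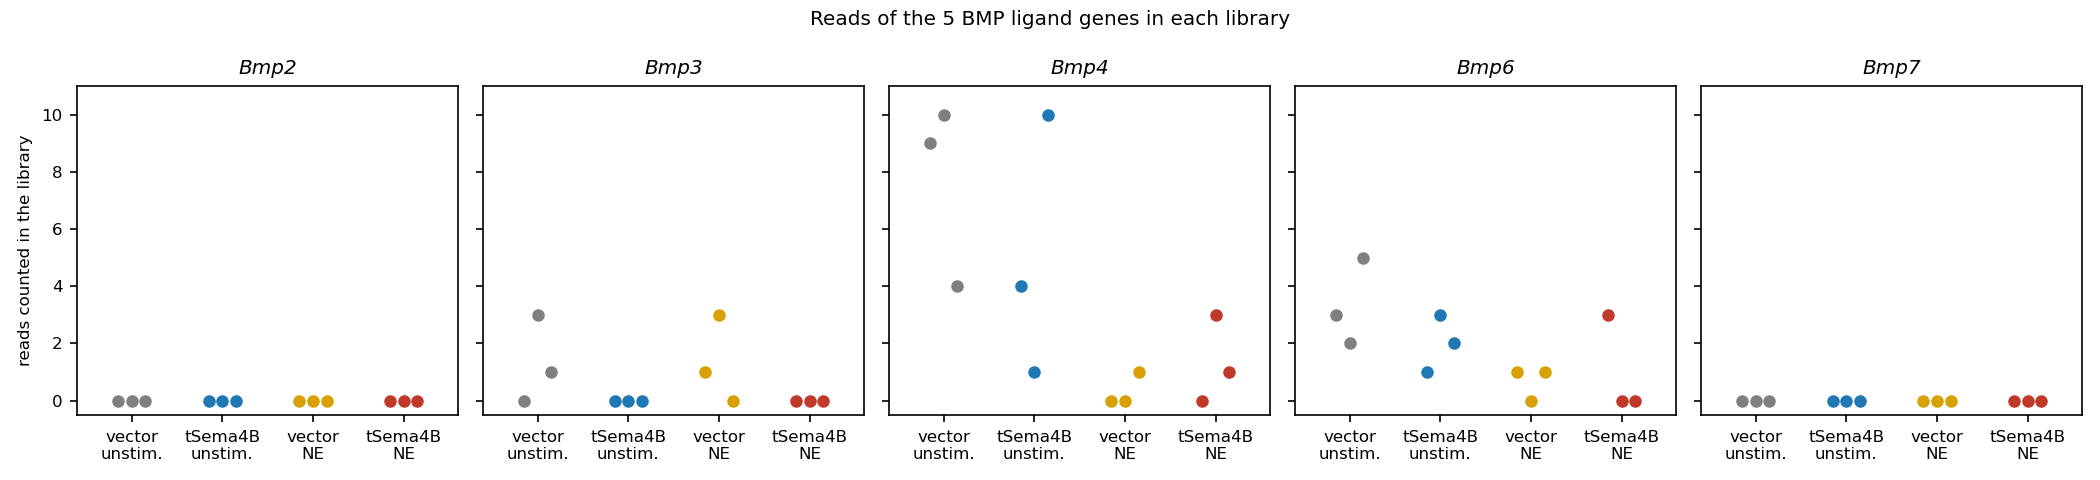
Reads counted for each BMP ligand gene (vertical axis) in each library, 1 point per library, in the 4 groups (vector or tSema4B line, unstimulated or with NE). Bmp2 and Bmp7 have 0 reads everywhere, and no library has more than 10 reads of any ligand.

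The type I receptor gene Bmpr1a was not called in any comparison. Its normalised read counts were 154, 212 and 210 in unstimulated vector, 178, 234 and 219 in unstimulated tSema4B, 208, 168 and 150 in vector with NE, and 236, 211 and 188 in tSema4B with NE. The groups overlapped in all 4 comparisons. The limma log2 fold change of tSema4B against vector was 0.13 unstimulated (95% interval -0.22 to 0.48, adjusted p = 0.673) and 0.28 with NE (-0.075 to 0.63, adjusted p = 0.270). That of NE was -0.13 in vector (-0.48 to 0.22, adjusted p = 0.718) and 0.013 in tSema4B cells (-0.34 to 0.36, adjusted p = 0.979). The value of tSema4B against vector with NE was 0.51 in reads thinned to the shallowest library (adjusted p = 0.0343), past the p threshold but not the fold threshold, and 0.45 with equal totals without Sema4b (adjusted p = 0.0534).

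Bmper was higher in tSema4B than in vector cells and higher with NE than without, and both differences exceeded the spread between libraries. It had 135, 124 and 143 normalised read counts in unstimulated vector, 279, 337 and 274 in unstimulated tSema4B, 417, 348 and 422 in vector with NE, and 952, 1153 and 1292 in tSema4B with NE. No 2 groups overlapped, and the lowest library with both tSema4B and NE lay above every other library. The group means were 134 ± 9.14, 297 ± 35.2, 396 ± 41.6 and 1133 ± 171 (SD, n = 3), so that tSema4B cells with NE held 8.46 times the level of unstimulated vector cells. Bmper rose in tSema4B cells by a log2 fold change of 1.14 unstimulated (SE 0.132, limma adjusted p = 1.82e-06, 2.20-fold) and of 1.51 with NE (adjusted p = 3.49e-08, 2.85-fold). It rose with NE by 1.55 in vector cells (adjusted p = 7.16e-08, 2.93-fold) and by 1.92 in tSema4B cells (adjusted p = 4.13e-09, 3.80-fold). The NE response of tSema4B cells exceeded that of vector cells by 0.37 on the log2 scale (95% interval -0.015 to 0.76), and this interaction was not called (limma adjusted p = 0.513).

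**Figure D2:**
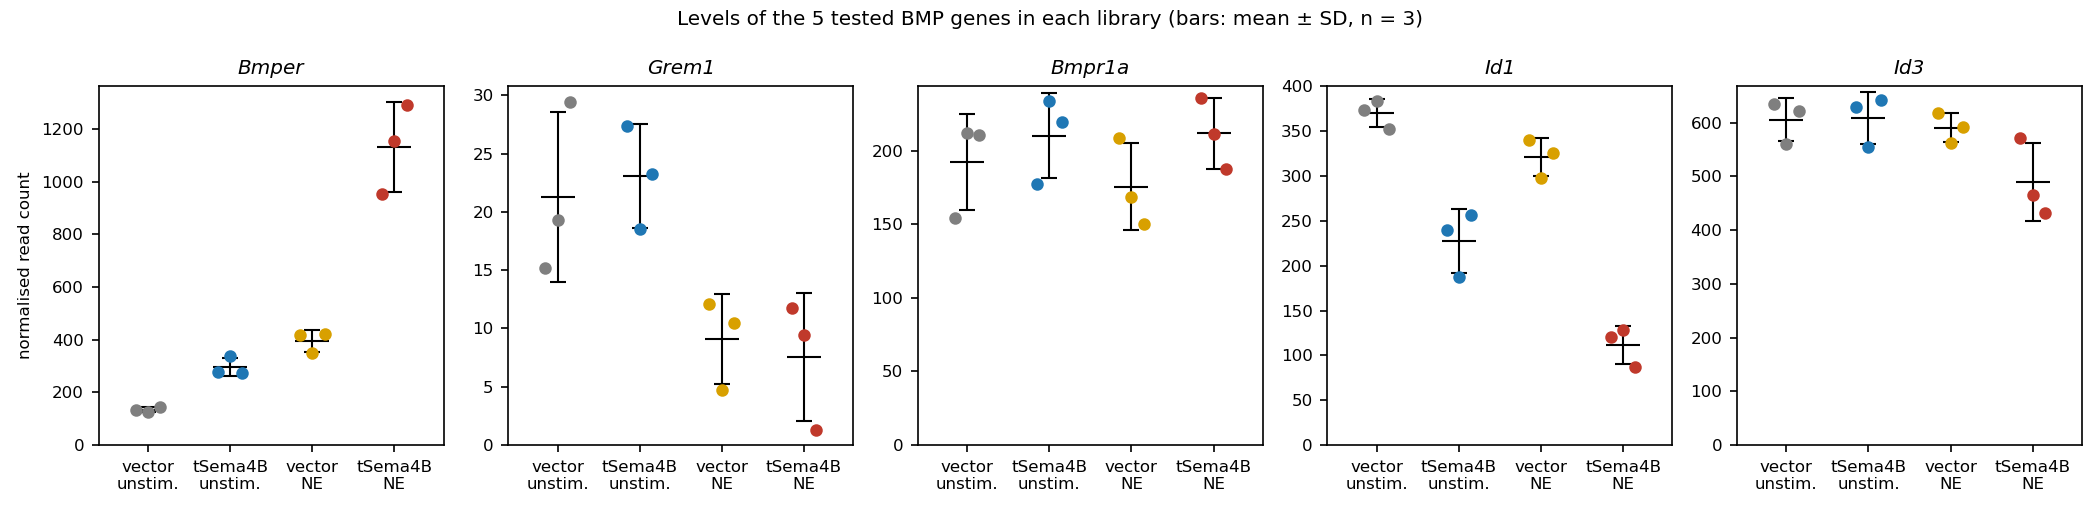
Normalised read counts (vertical axis, from 0, a separate scale per gene) of the 5 tested genes in each library, 1 point per library, with the mean and SD of the 3 libraries of each group. Bmper is highest and Id1 lowest in tSema4B cells with NE, without overlap with any other group, while Bmpr1a overlaps throughout.

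Grem1, which encodes the secreted antagonist Gremlin that binds Bmp2, Bmp4 and Bmp7, was scarce, with 1 to 27 reads per library. It had 15.2, 19.3 and 29.4 normalised read counts in unstimulated vector and 27.4, 18.6 and 23.3 in unstimulated tSema4B. With NE it had 12.1, 4.74 and 10.5 in vector and 11.8, 9.47 and 1.32 in tSema4B cells. Every NE library lay below every unstimulated library of the same line, whereas the lines overlapped in both conditions. The limma log2 fold change with NE was -1.18 in vector (SE 0.585, adjusted p = 0.225) and -1.81 in tSema4B cells (95% interval -3.03 to -0.60, adjusted p = 0.0693), and neither was called. The last value depended on single libraries and was -2.27 without tSema4B NE replicate 1 (adjusted p = 0.0319) and -1.04 without tSema4B NE replicate 3 (adjusted p = 0.277), the library with 1 read. It also moved with the pseudocount, to -0.96 with a pseudocount of 10 (adjusted p = 0.0491), past the p threshold but not the fold threshold. Between the lines, the log2 fold change was 0.14 unstimulated (-1.07 to 1.36) and -0.49 with NE (-1.70 to 0.72), intervals that leave room for more than a 2-fold difference either way unstimulated. The value between the lines with NE changed sign to 0.28 without tSema4B NE replicate 3. It was -0.22 in edgeR and in DESeq2, and -1.13 in thinned reads.

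Id1 was lower in tSema4B than in vector cells, by 1.64-fold unstimulated and by 2.89-fold with NE. Its normalised read counts were 374, 383 and 353 in unstimulated vector, 240, 187 and 256 in unstimulated tSema4B, 340, 298 and 325 in vector with NE, and 120, 128 and 87.2 in tSema4B with NE. The order of the groups was unstimulated vector, vector with NE, unstimulated tSema4B and tSema4B with NE, with no overlap between neighbours, and the first 2 of these did not differ by the test. The group means in that order were 370 ± 15.6, 321 ± 21.2, 228 ± 35.9 and 112 ± 21.6 (SD, n = 3), and the first was 3.31 times the last. Id1 fell in tSema4B cells with NE by 1.53 on the log2 scale (SE 0.155, limma adjusted p = 2.81e-07, 2.89-fold lower). Unstimulated, the log2 fold change was -0.71 (adjusted p = 0.00295, 1.64-fold lower), past the p threshold but not the fold threshold.

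With NE against without, the log2 fold change of Id1 was -0.20 in vector cells (95% interval -0.53 to 0.12, adjusted p = 0.463) and -1.03 in tSema4B cells (-1.35 to -0.71, limma adjusted p = 1.90e-04, 2.04-fold lower). The latter lies close to the fold threshold of 1 and lost its call, though not its adjusted p, with a pseudocount of 10 (-0.97) and without unstimulated tSema4B replicate 1 (-0.98), unstimulated tSema4B replicate 3 (-0.94) or tSema4B NE replicate 3 (-0.86). The difference between these responses was -0.82 (-1.28 to -0.37). This interaction had an unadjusted limma p of 0.00111 and an adjusted p of 0.164, an adjusted p of 0.128 in edgeR and of 0.0215 in DESeq2, and the adjusted p ranged from 0.0215 to 0.384 over the alternatives. Its range was -0.96 to -0.65 when any 1 of the 12 libraries was dropped, so no single library set its direction.

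Id3 was not called in any comparison. It had 634, 561 and 622 normalised read counts in unstimulated vector, 629, 554 and 642 in unstimulated tSema4B, 617, 562 and 593 in vector with NE, and 570, 465 and 432 in tSema4B with NE. The groups overlapped in all 4 comparisons, and 2 of the 3 tSema4B libraries with NE lay below all other libraries. The limma log2 fold change of tSema4B against vector was 0.0056 unstimulated (95% interval -0.22 to 0.24, adjusted p = 0.981) and -0.28 with NE (-0.51 to -0.052, adjusted p = 0.0751). With NE it was -0.035 in vector (-0.26 to 0.19, adjusted p = 0.898) and -0.32 in tSema4B cells (-0.55 to -0.092, adjusted p = 0.0915). None of these passed the p threshold, and all 4 intervals lay between -0.55 and 0.24 on the log2 scale. Without tSema4B NE replicate 1, the highest of its group, the values of tSema4B against vector with NE and of NE in tSema4B cells were -0.40 (adjusted p = 0.0148) and -0.44 (adjusted p = 0.0214), past the p threshold but not the fold threshold. With libraries set to equal totals without Sema4b, the former was -0.10 (adjusted p = 0.543).

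**Figure D3:**
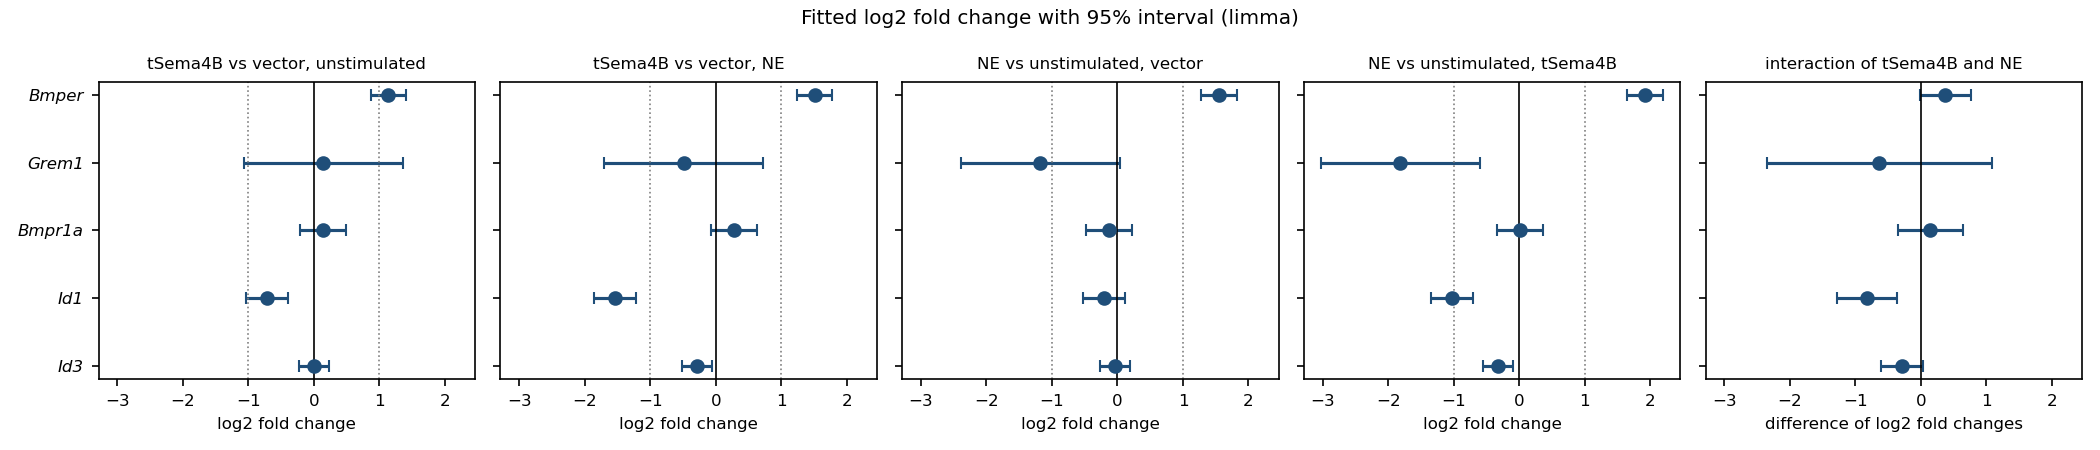
Limma log2 fold changes (horizontal axis) of the 5 tested genes in the 4 comparisons and the interaction, with 95% intervals. Dotted lines mark the fold threshold of 1 in either direction. Bmper lies to the right of 1 in all 4 comparisons, and the interval of Grem1 is the widest of the 5 in each panel.

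Counted over the 5 tested members, 1 of 5 (Bmper) passed both thresholds in unstimulated tSema4B cells against vector, where 3.82% of the 11998 genes tested did, and 2 of 5 (Bmper and Id1) passed with NE, where 5.76% did. With NE in vector cells 1 of 5 passed (Bmper; 2.63% of all genes), and in tSema4B cells 2 of 5 (Bmper and Id1; 2.07%). On the adjusted p alone the counts were 2, 2, 1 and 2 in the same order, against 13%, 21%, 11.6% and 6.25% of all genes. The groups did not overlap for 2, 2, 3 and 3 members, against 29.4%, 37.7%, 33.3% and 20.7% of all genes. The interaction was called for 0 of 5 members by limma and 0 of 5 by edgeR, and for 1 (Id1) by DESeq2, which called 87 genes in all. Limma called 3 genes for it (0.025% of those tested) and edgeR 4, and at an unadjusted p under 0.05 limma had 1 member (Id1) and 1227 genes in all. The 2 comparisons between lines share libraries with the 2 comparisons of NE, so they are not independent of each other. The members were chosen with earlier results of these data known, so their counts beside the shares of all genes are a description only.

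Ratios within a library do not depend on its scaling. Id1 relative to Id3 was 0.613 ± 0.0618 (SD, n = 3) in unstimulated vector, 0.543 ± 0.0115 in vector with NE, 0.372 ± 0.0312 in unstimulated tSema4B and 0.229 ± 0.0399 in tSema4B with NE. The lowest vector library of either condition, at 0.530, lay above the highest tSema4B library, at 0.399. Bmper relative to Bmpr1a was 0.713 ± 0.146 in unstimulated vector, 1.42 ± 0.161 in unstimulated tSema4B, 2.30 ± 0.452 in vector with NE and 5.46 ± 1.43 in tSema4B with NE, and no 2 groups overlapped.

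**Figure D4:**
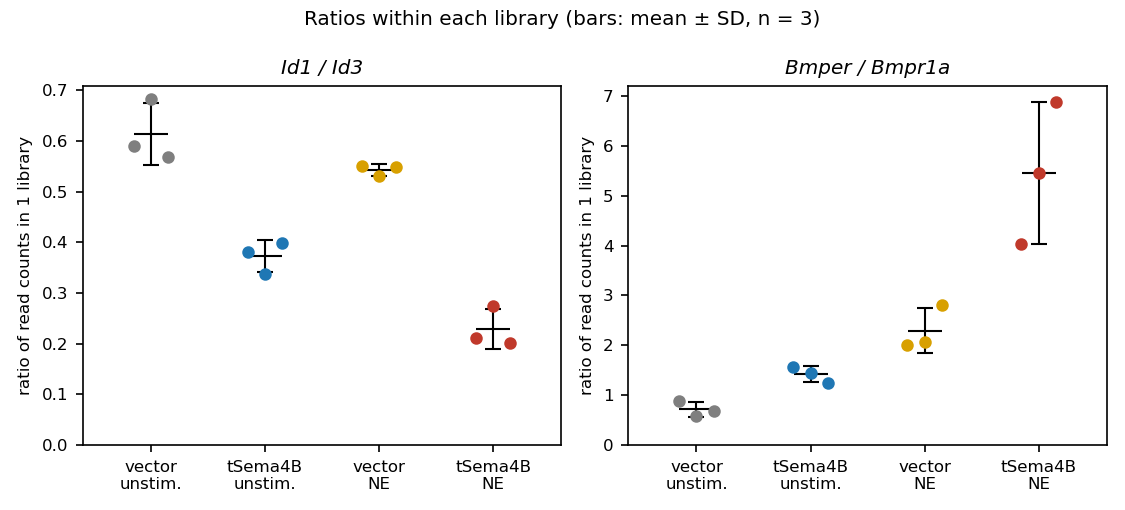
Ratio of the read counts of Id1 to Id3 and of Bmper to Bmpr1a in each library (vertical axes, from 0), 1 point per library, with the mean and SD of the 3 libraries of each group. The Id1 to Id3 ratio is lower in both tSema4B groups than in both vector groups, and the Bmper to Bmpr1a ratio is highest in tSema4B cells with NE.

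Levels were compared between genes as normalised read counts per kilobase of exon. In unstimulated vector cells the order was Id3 (mean 338, range over libraries 313 to 354), Id1 (319, 304 to 331), Bmpr1a (30.2, 24.3 to 33.4), Bmper (27.7, 25.7 to 29.5), Grem1 (5.14, 3.67 to 7.09), Bmp4 (3.34, 1.94 to 4.35), Bmp6 (0.888, 0.431 to 1.40) and Bmp3 (0.163, 0 to 0.341). Id3 and Id1 overlapped there, as did Bmpr1a with Bmper and Grem1 with Bmp4. In tSema4B cells with NE the order was Id3 (273, 241 to 319), Bmper (234, 197 to 267), Id1 (96.3, 75.2 to 110), Bmpr1a (33.3, 29.5 to 37.1) and Grem1 (1.81, 0.319 to 2.84). Bmper there overlapped Id3 and lay above Id1, whereas in unstimulated vector cells all its libraries lay below those of Id1. Id2, added after its values were seen because it is the third Id gene with substantial reads, had a mean of 226 per kilobase in unstimulated vector, 187 in unstimulated tSema4B, 154 in vector with NE and 111 in tSema4B with NE. Its limma log2 fold change with NE was -0.54 in vector (adjusted p = 0.00890) and -0.75 in tSema4B cells (adjusted p = 7.56e-04), and that of tSema4B against vector was -0.26 unstimulated (adjusted p = 0.214) and -0.47 with NE (adjusted p = 0.0127), all under the fold threshold.

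The rest of the pathway was counted from 5 lists of 71 genes, of which 70 were in the matrix and 46 were tested. The lists were chosen with earlier results of these data known, so their shares beside those of all genes are a description only. In limma both thresholds were passed by 4 of the 46 in unstimulated tSema4B against vector cells (2 higher and 2 lower, 8.70% against 3.82% of all genes tested), by 3 in the same comparison with NE (1 higher and 2 lower, 6.52% against 5.76%), by 1 with NE in vector cells (lower, 2.17% against 2.63%) and by 3 with NE in tSema4B cells (all lower, 6.52% against 2.07%). The median log2 fold change of the 46 was 0.044, 0.18, -0.15 and -0.14 in this order, against -0.0025, -0.010, -0.019 and -0.0048 over all genes tested. Among the 13 Smads and intracellular regulators, which carry and limit the signal inside the cell, 0 were called in any of the 4 comparisons by limma, edgeR or DESeq2. At the shares of all genes given above, a list of 13 genes is too small for this count to be read as a result. On the adjusted limma p alone the counts were 1, 0, 0 and 0, and 2, 2, 2 and 3 had an unadjusted limma p under 0.05.

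Of 11 other ligand genes only 2 were tested. Of these 1 was called in tSema4B against vector cells unstimulated, 2 with NE, and 0 and 0 with NE against without in vector and tSema4B cells. The latter counts were 0 and 0 at an unadjusted limma p under 0.05 and in edgeR, and 1 and 0 in DESeq2. Of all genes tested, limma called 3.82%, 5.76%, 2.63% and 2.07% in these 4 comparisons, and the counts of the lists below are too small to set against those shares. Gdf10, a relative of Bmp3, had 67, 94 and 56 reads in unstimulated vector and 1, 0 and 6 in unstimulated tSema4B, and 42, 61 and 57 against 0, 3 and 0 with NE. It fell in tSema4B cells, with a log2 fold change of -4.72 unstimulated (limma adjusted p = 4.85e-05) and of -4.47 with NE (adjusted p = 7.48e-05). Its call held under every alternative, but with so few tSema4B reads the size is uncertain, ranging from -5.59 to -2.67 and from -5.18 to -2.01 over the alternatives. With NE in vector cells its level was lower without overlap, at 33.9 ± 4.95 against 70.9 ± 9.16 normalised read counts (SD, n = 3), which limma did not call (-1.05, adjusted p = 0.395) and DESeq2 did. Bmp1, which in spite of its name is a metalloprotease that cleaves procollagens and the BMP antagonist chordin, rose in tSema4B cells with NE by 1.02 (adjusted p = 5.11e-04) from a mean of 114 ± 17.6 to 230 ± 17.9 normalised read counts (SD, n = 3). Unstimulated it was also higher, at 207 ± 60.7 against 121 ± 12.8 without overlap (0.74, adjusted p = 0.0110), below the fold threshold. The value with NE lies close to the fold threshold and lost its call with a pseudocount of 10 (0.96) and without vector NE replicate 3 (0.89), tSema4B NE replicate 1 (0.97) or tSema4B NE replicate 2 (0.997).

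Among 9 tested receptors and co-receptors the limma calls numbered 1, 0, 0 and 0 in the same order of comparisons, and 1, 2, 3 and 1 had an unadjusted p under 0.05. The counts called by edgeR and DESeq2 were the same. Eng, the co-receptor endoglin, had 11.9, 20.2 and 27.2 normalised read counts in unstimulated vector and 4.77, 1.55 and 4.11 in the unstimulated tSema4B libraries (log2 fold change -2.23, limma adjusted p = 0.0148). With NE the lines overlapped, at 8.30 to 19.0 in vector and 3.22 to 11.9 in tSema4B cells (-0.77, adjusted p = 0.400). The unstimulated values are 8 reads against 60, and their call was lost without the filter (adjusted p = 0.0543), in thinned reads (0.0615) and without unstimulated vector replicate 2 (0.0589), unstimulated vector replicate 3 (0.0766) or unstimulated tSema4B replicate 2 (0.0613).

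Among 13 tested extracellular modulators limma called 1, 1, 1 and 2 in that order, and edgeR and DESeq2 each called 1, 0, 1 and 2. On the adjusted limma p alone the counts were 3, 4, 1 and 2, and 5, 6, 4 and 4 had an unadjusted p under 0.05. Crim1, a membrane protein that binds BMPs, was higher in unstimulated tSema4B than in vector cells, at 83.6 ± 11.7 against 24.5 ± 8.91 normalised read counts (SD, n = 3; log2 fold change 1.78, limma adjusted p = 8.77e-04). With NE the lines overlapped, at 35.3 ± 10.4 in tSema4B against 41.3 ± 15.6 in vector cells (-0.20, adjusted p = 0.732). In tSema4B cells Crim1 was lower with NE than without (-1.26, adjusted p = 0.0280), a call that was lost without the filter (adjusted p = 0.0665) and without unstimulated tSema4B replicate 1 (0.0707), unstimulated tSema4B replicate 2 (0.0961) or tSema4B NE replicate 2 (0.121). Smoc2, a secreted matrix protein, fell with NE from 190 ± 33.7 to 47.2 ± 10.3 in vector cells (-1.99, adjusted p = 5.06e-05) and from 141 ± 30.4 to 59.9 ± 25.3 in tSema4B cells (-1.30, adjusted p = 0.00565). The latter lost its fold threshold without tSema4B NE replicate 3 (-0.90). Chrdl1, a secreted BMP antagonist, was called lower in tSema4B cells with NE (-2.50, adjusted p = 0.0239), but those libraries held 0, 9.47 and 38.3 normalised read counts and overlapped the 49.0, 29.6 and 47.8 of vector cells. Without tSema4B NE replicate 1 its value was -1.05 (adjusted p = 0.139), without vector NE replicate 1 the adjusted p was 0.0754 and without vector NE replicate 3 it was 0.0780. Neither edgeR (adjusted p = 0.0656) nor DESeq2 (0.274) called it.

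Among 9 tested targets other than the members 1, 0, 0 and 1 were called in that order by limma, edgeR and DESeq2 alike, and 2, 3, 2 and 4 had an unadjusted limma p under 0.05. Hey1, a transcriptional repressor also controlled by Notch, was at 85.1 ± 13.7 normalised read counts in unstimulated vector and at 223 ± 52.3 in the unstimulated tSema4B group (SD, n = 3; log2 fold change 1.36, limma adjusted p = 1.11e-04). In tSema4B cells with NE it was at 101 ± 7.96, lower by -1.11 on the log2 scale (adjusted p = 0.00236), a value of -0.96 without unstimulated tSema4B replicate 2. Between the lines with NE, Hey1 was at 101 ± 7.96 in tSema4B against 55.8 ± 12.0 in vector cells (0.86, adjusted p = 0.00659), past the p threshold but not the fold threshold. Hey1 and Id1 thus had opposite signs between the lines in both conditions.

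**Figure D5:**
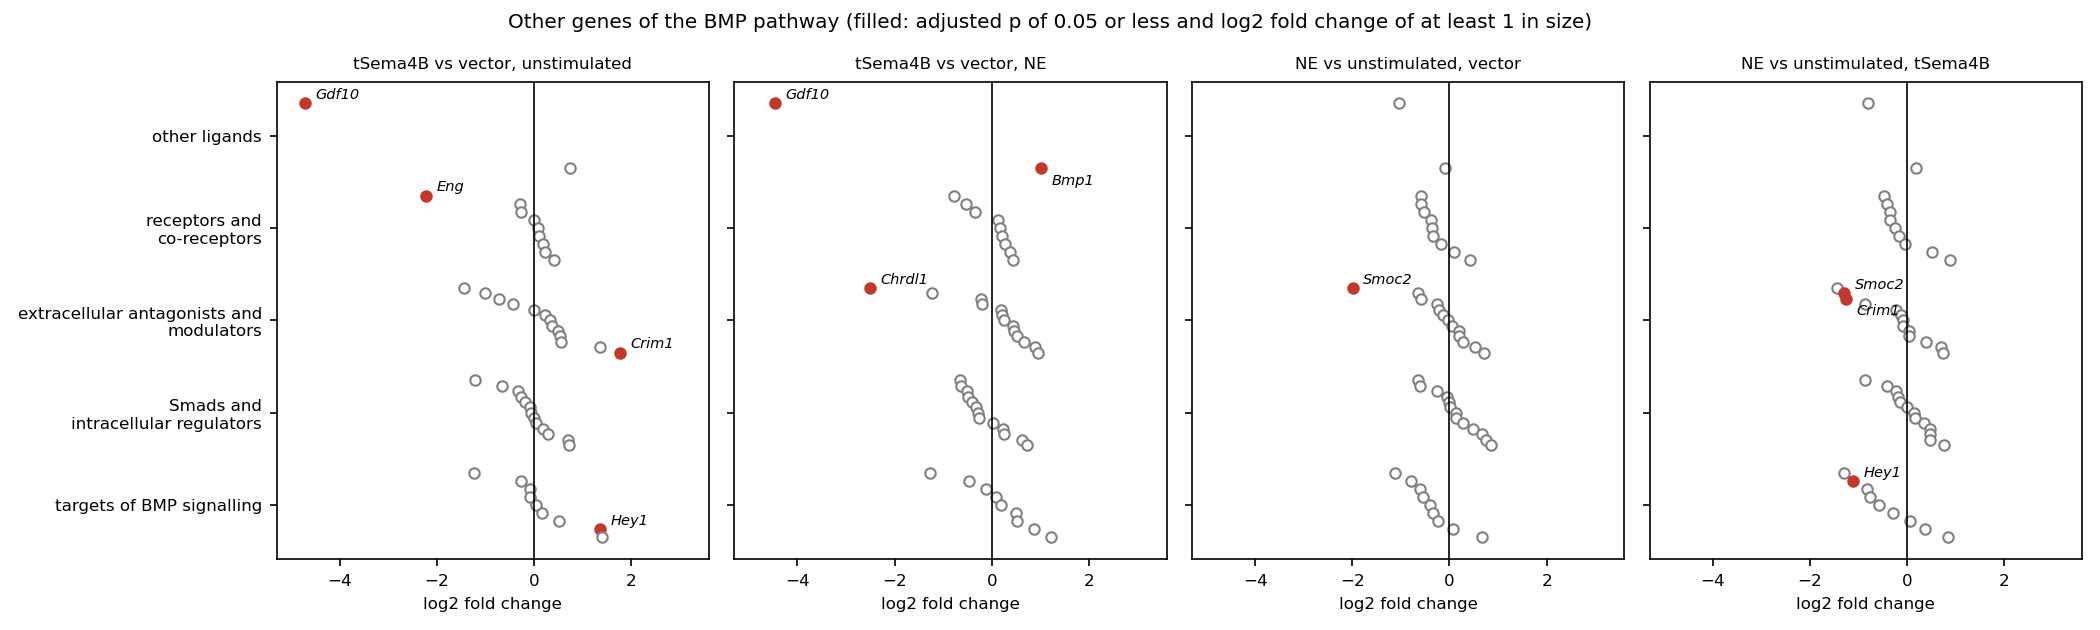
Limma log2 fold changes (horizontal axis) of the 46 tested genes of the 5 pathway lists (rows) in the 4 comparisons, 1 point per gene, placed within a row by rank. Filled points passed both thresholds and are named, and the row of Smads and intracellular regulators has none.

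The genes most like Bmper over the 12 libraries, by Pearson's correlation of log2 values among the genes tested, were Emb (r = 0.989), Il6st (0.979) and Ctsb (0.978). The libraries share 2 lines and 2 conditions, so this describes a common order of groups. Emb, which encodes the cell adhesion protein embigin, had means of 310 ± 12.2, 495 ± 12.8, 577 ± 28.0 and 940 ± 54.2 normalised read counts (SD, n = 3) in unstimulated vector, unstimulated tSema4B, vector with NE and tSema4B with NE. Il6st, the receptor chain shared by interleukin-6 family cytokines, went from 1046 ± 58.1 over 1620 ± 266 and 1742 ± 74.5 to 3139 ± 227 in that order, and Ctsb, the lysosomal protease cathepsin B, from 3781 ± 176 over 4641 ± 260 and 4672 ± 67.8 to 6130 ± 113. All 3 changed by smaller factors than Bmper from the first to the last of these groups.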

How the data were processed

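RNAseq was used from 12 libraries of immortalized murine brown adipocytes in 4 groups of 3, assigned from the sample labels. SMART-Seq2 cDNA was made into Nextera XT libraries and sequenced single-end. The authors screened the reads with FastQ Screen, ran STAR 2.7.9a against mm10 (GRCm38.p4), used htseq-count for the count of each gene and divided by DESeq2 size factors. The deposited signal is a normalised count. The counting strand and annotation are not given in the sources used here. All non-zero values (100%) were whole multiples of 1 read to within 0.01, so whole reads were recovered. Values were tested as log2(normalised count + 1). On this scale the fold changes of low genes depend on the pseudocount, and a library near 0 weighs heavily. Genes with at least 10 normalised counts in at least 3 libraries (11998) entered a single model of the 4 groups in limma 3.58.1 (R 4.3.3; two-sided, trend, Benjamini-Hochberg over all genes tested), which was tested on simulated data. Calls needed an adjusted p no larger than 0.05 and, except for the interaction, a size of 1 or more on the log2 scale. Intervals of low read counts are exact binomial and cover counting error only. All 10 members were named, and other pathway genes where called in at least 1 comparison, with Id2 added after its values were seen. The members and lists were chosen with earlier results of these data known. Alternatives were pseudocounts of 0.5 and 10, no filter, equal library totals, edgeR 4.0.16 (TMM) and DESeq2 1.42.0 on recovered reads, the adjusted p alone, a replicate block and each library left out. Equal totals without Sema4b and reads thinned to the shallowest library were chosen after seeing the data. Exon lengths and overlaps came from GENCODE (GRCm38).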

Additional observations from a re-analysis of the deposited data

How the results depend on the processing

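For 25 values (5 tested members in 4 comparisons and the interaction), 525 values were recomputed. Of these, 508 kept their direction and whether they were called, and 4 lost and 2 gained a call. Another 11 changed sign, none of these among called values. In the 4 comparisons a log2 fold change cannot move when a library of another group is left out, without the filter or with the replicate block. The direction of those recomputed values was fixed beforehand, and most of the 25 values were not called to begin with. Bmper held its 4 calls under every alternative, with log2 fold changes of 1.04 to 1.25, 1.41 to 1.69, 1.49 to 1.64 and 1.82 to 2.04. Id1 in tSema4B against vector was -1.64 to -1.35 with NE and -0.80 to -0.58 without. The number of members called became 2 on the adjusted p alone (unstimulated lines), 2 without the filter (NE in vector, with Bmp4 added), 1 with a pseudocount of 10 (NE in tSema4B) and 1 with DESeq2 (interaction). Leaving out each library gave 1 to 3 members for NE in tSema4B. The falls to 1 were Id1 dropping under the fold threshold. The rise to 3 was Grem1, called without tSema4B NE replicate 1 (-2.27, limma adjusted p = 0.0319). Why these libraries differed was not tested. Id3 between unstimulated lines was -0.00057 in edgeR. Leaving out a library also turned the sign of uncalled values. The ranges were -0.016 to 0.25 (Bmpr1a, unstimulated lines), -0.10 to 0.097 (Bmpr1a, NE in tSema4B), -0.063 to 0.39 (Grem1, unstimulated lines), -0.95 to 0.28 (Grem1, lines with NE), -1.09 to 0.14 (Grem1, interaction), -0.049 to 0.072 (Id3, unstimulated lines) and -0.089 to 0.00027 (Id3, NE in vector). Same-numbered replicates did not deviate together (18 pairs, correlations -0.047 to 0.028). With the replicate number as a block the members called stayed at 1, 2, 1, 2 and 0, and Id1 for NE in tSema4B had an adjusted p of 3.91e-04. Equal library totals shifted the median of all genes by at most 0.094 and moved the share of calls that were higher in tSema4B cells with NE from 35.3% to 48.9%. Low read counts limit the results on the ligands and Grem1, and also those on Eng and Gdf10 in tSema4B cells.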
